A study of Mus musculus with 8 samples.

Results

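The 10 genes studied here set or report the iron hormone axis of the liver, and their RNA was measured in livers of mice with a hepatic FOXO1 knockout and of wildtype control mice. They were chosen by name as the hepcidin genes Hamp and Hamp2, the ligand genes Bmp6 and Bmp2, the BMP target genes Id1 and Smad7, the iron sensor genes Hfe and Tfr2, the iron uptake receptor gene Tfrc and the iron exporter gene Slc40a1. All 10 were found among the 25690 genes of the deposited table, each as 1 row, and 9 of them had a mean of at least 1 FPKM and were tested with the 10250 genes at that level. FPKM counts sequenced fragments relative to transcript length and library depth. There were 4 knockout libraries, numbered 3, 9, 10 and 11 in their titles, and 4 wildtype libraries, numbered 1, 3, 10 and 12. The labels give the tissue as liver and name no other allele, drug or treatment in either group. The driver of the deletion, the cells that carry it, and strain, sex, age and diet were not stated in the labels read here. Nor is it stated whether each library is a different mouse, so the spread on which p-values rest may be technical.

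Hepcidin is a peptide hormone that hepatocytes secrete. It binds ferroportin, the product of Slc40a1 and the iron exporter of gut cells, macrophages and hepatocytes, and causes its degradation, so that less iron enters the blood. Sinusoidal endothelial cells make the ligands BMP6 and BMP2, which act on hepatocyte receptors and, through SMAD proteins, raise transcription of Hamp together with the feedback genes Id1 and Smad7. HFE and the second transferrin receptor, the product of Tfr2, report transferrin-bound iron to the same pathway, and interleukin-6 raises Hamp separately through STAT3 during inflammation.

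Foxo1, the targeted gene, was at 0.224, 0.267, 0.375 and 0.212 FPKM in knockouts 3, 9, 10 and 11, against 3.21, 3.01, 3.38 and 3.81 FPKM in wildtypes 1, 3, 10 and 12. Estimated depth was 26.9 M to 35.2 M fragments per library. The hepatocyte gene Apoa1 lay between 7917 and 10986 FPKM in the knockout libraries and between 8672 and 10918 FPKM in the wildtype libraries, while the albumin gene Alb was listed at 0 in knockout 10 alone. Knockouts 3 and 11 stood apart in acute phase genes, which encode blood proteins of inflammation. The summed level of 14 such genes was 94570, 11310, 12170 and 93420 FPKM in knockouts 3, 9, 10 and 11, and 9131 to 10190 FPKM in the wildtype libraries. The summed level of 10 neutrophil and lymphocyte markers was 57.9, 3.99, 7.73 and 137 FPKM in knockouts 3, 9, 10 and 11. In wildtype it was 2.39 to 5.84 FPKM. Most of the sum in knockouts 3 and 11 was S100a8, at 31.4 and 77.25 FPKM, and S100a9, at 24.3 and 57.5 FPKM. The lymphocyte markers did not follow knockouts 3 and 11 as a set. Cd3e and Cd8a were at most 0.0492 FPKM in any library, and Cd4 was at 1.69, 1.24, 1.71 and 0.943 FPKM in knockouts 3, 9, 10 and 11. Because knockouts 3 and 11 stood apart in acute phase genes, each tested member is given with and without them.

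The regulatory sequences of the hepcidin genes are shown because the copies share much but not all of their control region. Hamp (ENSMUSG00000050440, chromosome 7, 30942368 to 30944032) and Hamp2 (ENSMUSG00000056978, chromosome 7, 30922372 to 30924681) are protein-coding genes on the minus strand of mm10, 17686 bases apart. Their longest transcripts, of 410 and 437 bases, had 88.8% identical columns when aligned, and their coding sequences 92.5%, so reads can be shared and the split between them is uncertain. The 250 bases before each RefSeq start site (GRCm38.p6, minus strand, chr7:30944030-30944279 for Hamp and chr7:30924182-30924431 for Hamp2) are given from 5′ to 3′ on the gene's strand. Capitals mark the BMP response element GGCGCC and the STAT motif TTCNNNGAA.
Hamp: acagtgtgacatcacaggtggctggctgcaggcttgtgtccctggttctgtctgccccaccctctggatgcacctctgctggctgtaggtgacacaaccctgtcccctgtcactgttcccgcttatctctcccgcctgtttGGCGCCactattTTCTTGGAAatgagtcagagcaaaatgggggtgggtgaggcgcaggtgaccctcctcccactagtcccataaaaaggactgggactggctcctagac
Hamp2: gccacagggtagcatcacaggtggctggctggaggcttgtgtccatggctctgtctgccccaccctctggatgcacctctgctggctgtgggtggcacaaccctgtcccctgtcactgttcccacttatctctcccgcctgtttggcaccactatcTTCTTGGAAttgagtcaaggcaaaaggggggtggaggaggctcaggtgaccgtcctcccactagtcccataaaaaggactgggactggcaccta
These windows had 89.7% identical columns. The Hamp2 window lies inside the GENCODE span of Hamp2 given above, which begins at 30924681 on the minus strand. The RefSeq and GENCODE start sites of Hamp2 thus differ. Counted from the start site, GGCGCC, which reads the same on both strands, stood at -109 to -104 in Hamp. The aligned element of Hamp2 differed by G145A (Hamp base first, position counted from 1 at the 5′ end of the printed Hamp window, then the Hamp2 base), so the letters GGCGCC were not found in the Hamp2 window. Tfrc was the other member with GGCGCC, at -89 to -84. TTCNNNGAA was found in both, at -97 to -89 in Hamp and at -94 to -86 in Hamp2. Among 32851 windows of this length in the RefSeq promoter table, 9.59% held GGCGCC and 7.02% held TTCNNNGAA. The FoxO element GTAAACA, searched on both strands, was in 3.17% of all windows and in the windows of 0 of the 6 members that the table holds, which are Hamp, Hamp2, Bmp6, Hfe, Tfr2 and Tfrc. The shorter FoxO core AAACA, on the opposite strand, stood at -114 to -110 in Hamp and at -111 to -107 in Hamp2, and was also found in Tfr2 and Hfe. It was thus in 4 of the 6 members and in 46.4% of all windows. In Hamp it touches GGCGCC without overlap. Bmp2, Id1, Smad7 and Slc40a1 had no entry. A match of letters is a description of the window and not evidence of binding.

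Hamp differed widely among the knockout libraries and little among the wildtype libraries. It was at 4553, 1815, 523 and 6813 FPKM in knockouts 3, 9, 10 and 11, against 1971, 2040, 3053 and 2377 FPKM in wildtypes 1, 3, 10 and 12. Knockouts 3 and 11 lay above every wildtype library, knockouts 9 and 10 lay below every one, and the groups overlapped. The mean was 3426 ± 2814 FPKM in knockout and 2360 ± 495 FPKM in wildtype liver (SD, n = 4 each). On the log2(FPKM + 1) scale used for all changes here, which understates the change of low genes, the fitted change of Hamp was 0.00 (SE 0.67, limma adjusted p = 0.998). In the fit that leaves out knockouts 3 and 11 the difference was -1.25 (limma adjusted p = 0.128). The highest Hamp levels were thus in the libraries with the highest acute phase sums, and the part of the acute phase in the level of Hamp was not tested. The acute phase gene Saa1, at 28413, 573, 266 and 33012 FPKM in knockouts 3, 9, 10 and 11 and between 78.3 and 195 FPKM in wildtype, was above wildtype in knockouts 9 and 10 as well, where Hamp was not.

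Hamp2 did not show the high values of Hamp in knockouts 3 and 11. It was at 264, 68.8, 76.9 and 286 FPKM in knockouts 3, 9, 10 and 11, against 262, 337, 243 and 472 FPKM in wildtypes 1, 3, 10 and 12. Knockouts 9 and 10 lay below every wildtype library, while knockouts 3 and 11 lay within the wildtype range. The change of -1.16 (SE 0.48) did not pass over all libraries (limma adjusted p = 0.137), and with the trend of changes along transcript length removed it was -0.71 (0.364), where Hamp was at 0.46 (0.698). Without knockouts 3 and 11 Hamp2 was lower by 2.11 on the log2 scale and passed (limma adjusted p = 0.00969), a comparison that rests on 2 knockout libraries. The ratio of Hamp to Hamp2 was 17.3, 26.4, 6.80 and 23.8 in knockouts 3, 9, 10 and 11, against 7.54, 6.06, 12.6 and 5.03 in wildtypes 1, 3, 10 and 12. The ratio was above every wildtype library in 3 of 4 knockout libraries, and the log2 difference of 1.17 did not pass an exact two-sided permutation test (p = 0.0857, with 0.0286 the smallest p that 70 divisions allow). Since reads may be shared, both genes were also summed. Hamp and Hamp2 together were at 4817, 1884, 600 and 7099 FPKM in knockouts 3, 9, 10 and 11, against 2232, 2377, 3296 and 2849 FPKM in wildtypes 1, 3, 10 and 12. Their log2 difference was -0.09 (exact two-sided permutation test, p = 0.914). It was 0.59 without knockout 10 (exact permutation p = 0.343), -0.59 without knockout 11 (0.514) and -1.32 without knockouts 3 and 11, where the exact p of 0.0667 is the smallest that 2 against 4 libraries can give, so that this comparison could not pass.

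**Figure D1:**
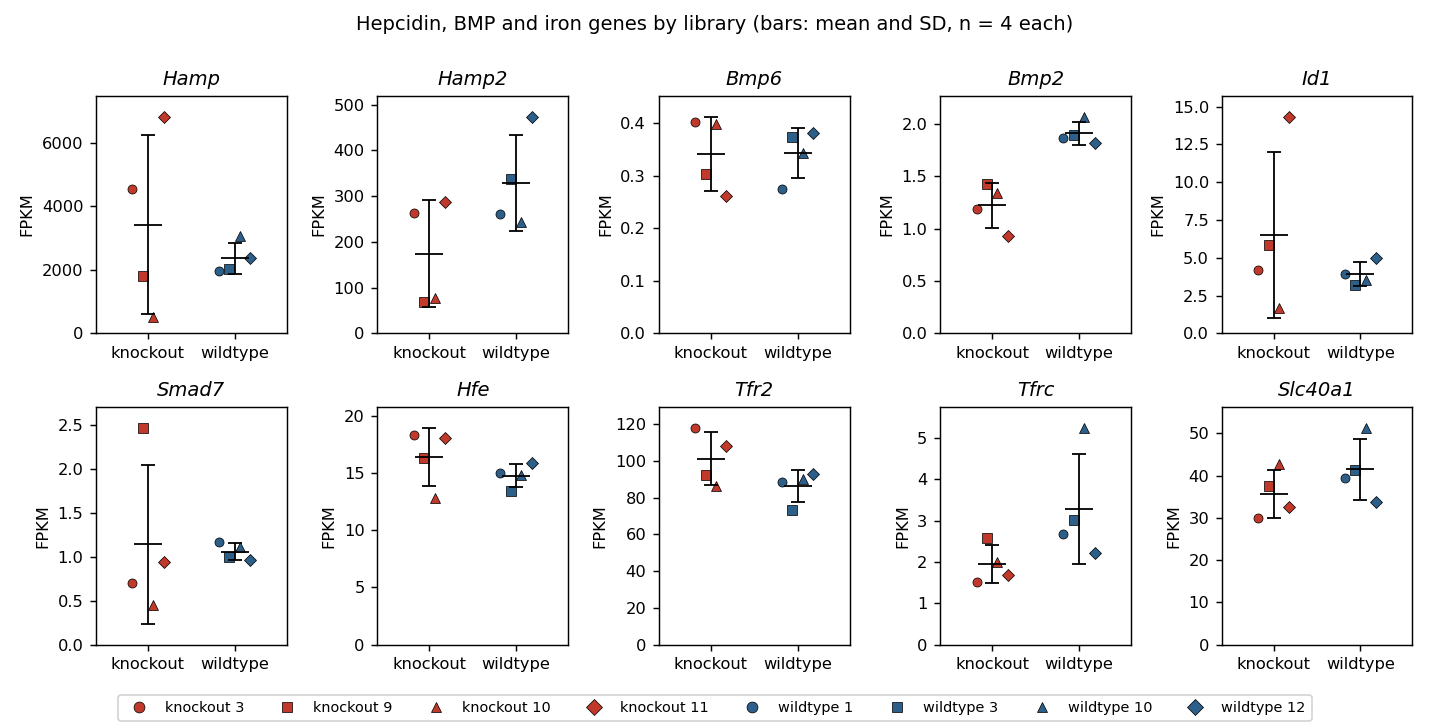
FPKM of the 10 genes in each library, knockout libraries left and wildtype libraries right, on linear axes from 0; points are libraries and bars the mean and SD (n = 4 each). Hamp, Id1 and Smad7 spread widely among the knockout libraries, and the 4 knockout points of Bmp2, at 0.935 to 1.42 FPKM, lie below the 4 wildtype points, at 1.82 to 2.07 FPKM.

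The ligand gene Bmp2 (ENSMUSG00000027358, chromosome 2, 133552159 to 133562885, plus strand) was the single tested member that passed. It was at 1.19, 1.42, 1.35 and 0.935 FPKM in knockouts 3, 9, 10 and 11, against 1.87, 1.89, 2.07 and 1.82 FPKM in wildtypes 1, 3, 10 and 12. Every knockout library was below every wildtype library, as in 21.3% of all tested genes in either direction. The mean was 1.22 ± 0.216 FPKM in knockout and 1.91 ± 0.108 FPKM in wildtype liver (SD, n = 4 each), 0.640 times as high. Bmp2 fell by 0.39 (SE 0.10, limma adjusted p = 0.0251). Thus 1 of the 9 tested members fell and 0 rose, beside 11.7% and 2.70% of all tested genes, or 14.4% in either direction. At an unadjusted p under 0.05 there were 3 of the 9 members, beside 3126 of all 10250 tested genes. The call was lost without knockout 3 (limma adjusted p = 0.0638) or without wildtype 1, 3, 10 or 12, each alone (0.0505 to 0.0723), and without knockouts 3 and 11 together the difference was -0.29 (0.105). The genes most like Bmp2 over the 8 libraries, by Pearson's r of log2(FPKM + 1), were Gm10709, Tubgcp6 and Rxrg (r of 0.986, 0.985 and 0.985), a description that the genotype difference enters. For Hamp they were Gm11437, Lrrfip1 and Tmem9b (r of 0.942, 0.918 and 0.916).

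Bmp2 is a gene of sinusoidal endothelial cells. Of 19 markers of those cells, all in the table, 15 were tested, 3 fell and 0 rose, beside 11.7% and 2.70% of all tested genes. The median log2 change of the 15 was -0.24, beside -0.08 over all tested genes. The summed level of the 19 was 62.9, 61.1, 102 and 67.7 FPKM in knockouts 3, 9, 10 and 11, against 121, 122, 110 and 96.0 FPKM in wildtypes 1, 3, 10 and 12, and 0 markers were listed at 0 in any library. The 3 that passed were the scavenger receptor gene Stab1, which fell by 1.02 (limma adjusted p = 0.0148), Egfl7 by 0.78 (0.0140) and the Fc receptor gene Fcgr2b by 0.59 (0.0130). The others did not fall alike. Among those that did not pass, Pecam1 and Gata4 were each at 0.01, and Kdr and Clec4g at -0.35 and -0.38. In knockout 10 the median of the tested markers was 0.12 above the wildtype mean while Bmp2 was at -0.31, and in knockouts 3, 9 and 11 the medians were -0.41, -0.41 and -0.39. When knockouts 3 and 11 were left out, limma called 0 of the 15 markers (3 at an unadjusted p under 0.05), and their median was -0.11. In bulk tissue, fewer cells of a type and less RNA per cell cannot be told apart, and the part of the endothelial markers in the level of Bmp2 was not tested.

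**Figure D2:**
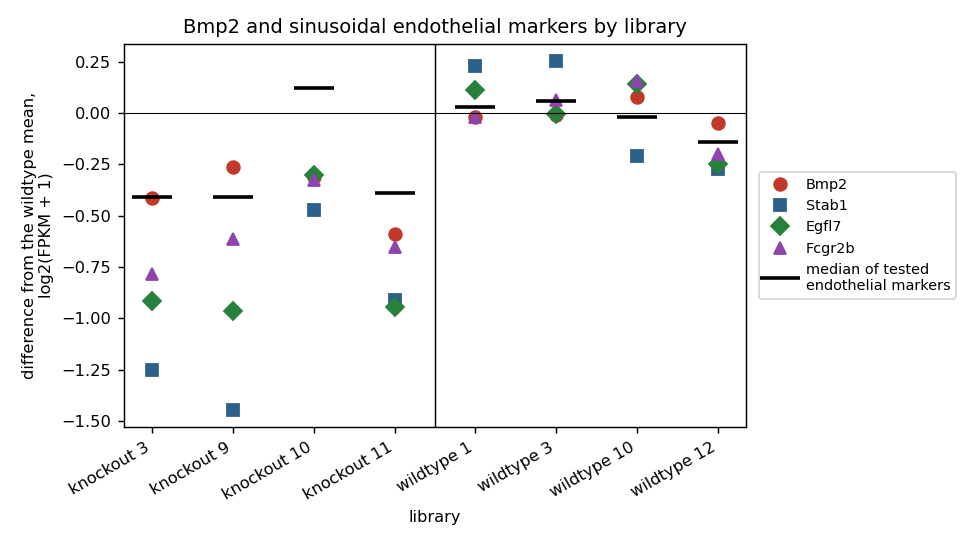
Difference from the wildtype mean on the log2(FPKM + 1) scale for Bmp2, Stab1, Egfl7 and Fcgr2b (symbols) and for the median of the 15 tested endothelial markers (black bars), knockout libraries left of wildtype libraries. Stab1, Egfl7 and Fcgr2b are the markers that passed. Bmp2 lies between -0.59 and -0.26 in the knockout libraries, and in knockout 10 the marker median, 0.12, does not lie below 0.

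Bmp6, the other endothelial ligand gene (ENSMUSG00000039004, chromosome 13, 38345107 to 38500302, plus strand), was low throughout. It was at 0.403, 0.304, 0.399 and 0.262 FPKM in knockouts 3, 9, 10 and 11, against 0.276, 0.373, 0.345 and 0.381 FPKM in wildtypes 1, 3, 10 and 12. The groups overlapped, and the means were 0.342 ± 0.0700 FPKM in knockout and 0.344 ± 0.0481 FPKM in wildtype liver (SD, n = 4 each). These levels correspond to an estimated 30 to 48 fragments per library. Bmp6 was below the mean of 1 FPKM set for testing, and with no such limit its change was 0.00 (limma adjusted p = 0.986). Whether the changes of Bmp6 and Bmp2 differ from each other was not tested.

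Of other BMP ligands and extracellular antagonists, 10 of the 19 in the table were tested. Beside 11.7% of all tested genes that fell, 1 of these 10 fell. This was Fst, which encodes follistatin, a binding protein of activins and BMPs, at 0.587, 1.30, 1.04 and 1.45 FPKM in knockouts 3, 9, 10 and 11 against 4.32, 3.54, 2.59 and 1.38 FPKM in wildtypes 1, 3, 10 and 12. It fell by 0.88 (limma adjusted p = 0.0402), with knockout 11 just above wildtype 12. The call was kept in 5 of 17 alternatives. It was lost when low genes were kept (0.0973), with median-ratio scaling (0.0704), with quantile normalization (0.0655), with the trend along transcript length removed (0.0849), without any single library except wildtype 12 (0.0508 to 0.106) and without knockouts 3 and 11 together (0.140). Without these, the activin subunit genes Inhbe and Inhbc were higher by 0.98 and 0.83 (limma adjusted p = 0.0329 and 0.0413). Both are named after their values were seen, and over all libraries they did not pass (0.737 and 0.245). A list of BMP receptors, co-receptors and other proteins upstream of hepcidin, such as proteases and their inhibitors, gave no call. Of 12 tested, 0 rose and 0 fell in limma, 0 had an unadjusted p under 0.05, and their median change was 0.02. Hfe2, the gene of the BMP co-receptor hemojuvelin, was at 30.6, 14.3, 23.5 and 31.2 FPKM in knockouts 3, 9, 10 and 11, against 27.5, 28.8, 27.8 and 34.4 FPKM in wildtypes 1, 3, 10 and 12 (limma adjusted p = 0.405). Tmprss6, which encodes the protease that cleaves hemojuvelin, averaged 92.2 ± 2.25 FPKM in knockout and 91.0 ± 6.56 FPKM in wildtype liver (SD, n = 4 each), a change of 0.02 (SE 0.08, limma adjusted p = 0.897).

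The BMP target Id1, the gene of an inhibitor of helix-loop-helix transcription factors (ENSMUSG00000042745, chromosome 2, 152736251 to 152737410, plus strand), spread over the knockout libraries. It was at 4.16, 5.83, 1.68 and 14.3 FPKM in knockouts 3, 9, 10 and 11, against 3.93, 3.17, 3.54 and 4.998 FPKM in wildtypes 1, 3, 10 and 12. Knockout 11 was highest and knockout 10 lowest of all libraries, the same libraries that were highest and lowest for Hamp, but knockouts 3 and 9 did not keep the order of Hamp. The change was 0.34 (SE 0.43, limma adjusted p = 0.647), and without knockouts 3 and 11 it was -0.19 (0.771).

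Smad7, the gene of an inhibitory SMAD that restrains the pathway (ENSMUSG00000025880), was at 0.702, 2.47, 0.453 and 0.946 FPKM in knockouts 3, 9, 10 and 11. It was at 1.17, 0.993, 1.11 and 0.964 FPKM in wildtypes 1, 3, 10 and 12. Knockout 9 lay above every wildtype library and the other knockout libraries lay below every one, although in knockout 11 by little. The change was -0.03 (SE 0.23, limma adjusted p = 0.957), and without knockouts 3 and 11 it was 0.13 (0.828).

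Of 10 other tested SMAD and BMP target genes 1 fell and 0 rose, beside 11.7% and 2.70% of all tested genes. Their median was -0.06. Id2, a relative of Id1, fell by 0.68 (SE 0.17, limma adjusted p = 0.0294). It was at 142, 154, 174 and 98.9 FPKM in knockouts 3, 9, 10 and 11, all below the 230, 247, 239 and 187 FPKM of wildtypes 1, 3, 10 and 12. The call of Id2 was lost when knockouts 3 and 11 were left out (-0.45, limma adjusted p = 0.0798), with quantile normalization (-0.40, limma adjusted p = 0.205), with the trend along transcript length removed (-0.55, 0.0739), with median-ratio scaling (0.0549), when low genes were kept (0.0663), and on leaving out any one of knockout 3 and wildtypes 1, 3 and 10 (highest p 0.0798). Id3 ranged from 11.3 to 23.1 FPKM in knockout liver, against 12.2 to 18.3 FPKM in wildtype liver, and its change was 0.15 (limma adjusted p = 0.682). Smad6, a second inhibitory SMAD, was at 0.862 ± 0.315 FPKM in knockout and 1.48 ± 0.524 FPKM in wildtype liver (SD, n = 4 each), a difference that missed the threshold (-0.40, limma adjusted p = 0.162), as was that of the BMP target Atoh8, which was at 3.03 ± 1.10 FPKM in knockout and 4.02 ± 0.746 FPKM in wildtype liver (-0.34, limma adjusted p = 0.274). Id4 was too low to be tested, at 0.115, 0.0834, 0.0944 and 0.0904 FPKM in knockouts 3, 9, 10 and 11, all below the 0.189, 0.212, 0.181 and 0.238 FPKM of wildtypes 1, 3, 10 and 12. When low genes were kept its change was -0.14 (limma adjusted p = 0.0108). The sign of Id1 turned without knockout 11 (-0.10), and the difference between Id1 and Id2 was not tested.

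**Figure D3:**
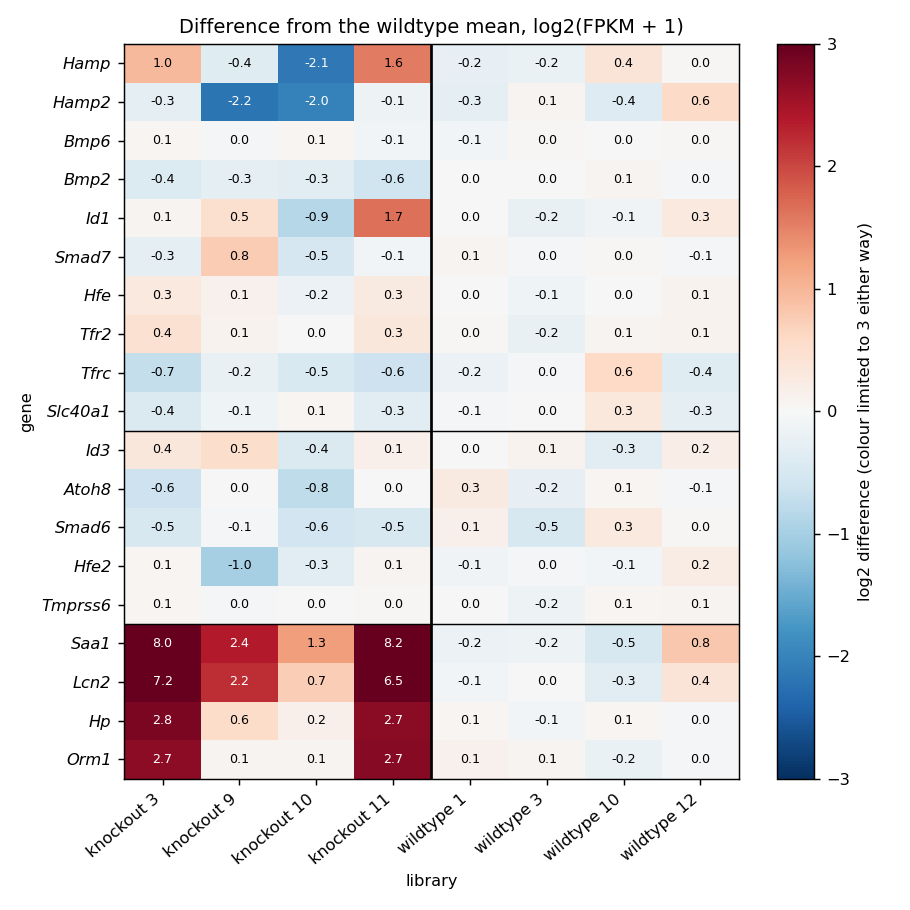
Difference of each library from the wildtype mean, log2(FPKM + 1), for the 10 genes (top block), other BMP pathway genes (middle) and acute phase genes (bottom), with knockout libraries left of wildtype libraries and colour limited to 3 either way. Hamp is at 0.97, -0.36, -2.15 and 1.55 in knockouts 3, 9, 10 and 11. In the same libraries Saa1 is at 8.0, 2.37, 1.26 and 8.21, and Orm1 at 2.67, 0.07, 0.08 and 2.72.

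The sensor gene Hfe (ENSMUSG00000006611, chromosome 13, 23702034 to 23710854, minus strand) was at 18.4, 16.3, 12.9 and 18.1 FPKM in knockouts 3, 9, 10 and 11. It was at 15.0, 13.5, 14.8 and 15.9 FPKM in wildtypes 1, 3, 10 and 12. Knockouts 3, 9 and 11 were above every wildtype library and knockout 10 was below every one. The change of 0.13 (SE 0.12) did not pass (limma adjusted p = 0.510), and it was -0.03 without knockouts 3 and 11 (0.918).

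Tfr2 (ENSMUSG00000029716, chromosome 5, 137569840 to 137587481, plus strand) encodes the second transferrin receptor, a hepatocyte protein. It was at 118, 92.7, 86.2 and 108 FPKM in knockouts 3, 9, 10 and 11, against 88.6, 73.4, 90.5 and 93.0 FPKM in wildtypes 1, 3, 10 and 12. Knockouts 3 and 11 were above every wildtype library, and knockouts 9 and 10 lay within the wildtype range. The change of 0.22 (SE 0.12) did not pass (limma adjusted p = 0.264), and without knockouts 3 and 11 it was 0.05 (0.807). Libraries 3 and 11 of the knockout group were thus the highest of all libraries for Hamp, Hfe and Tfr2, and the highest in acute phase sums.

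Tfrc and Slc40a1 carry iron-responsive elements, hairpins with the loop CAGTGN that iron regulatory proteins bind when iron is low. In the 3′ UTR of Tfrc this binding protects the RNA from decay, and in the 5′ UTR of Slc40a1 and the ferritin genes Fth1 and Ftl1 it blocks translation, so RNA levels report iron in Tfrc more directly than in the others. The elements are shown with the loop in capitals, from a bulged C through 5 pairs, the loop and the pairing bases, 17 bases each, on the gene's strand of GRCm38.
Slc40a1, 5′ UTR, chr1:45925471-45925487: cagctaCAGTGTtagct
Fth1, 5′ UTR, chr19:9982738-9982754: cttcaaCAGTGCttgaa
Ftl1, 5′ UTR, chr7:45459785-45459801: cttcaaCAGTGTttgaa
Tfrc, 3′ UTR, chr16:32631225-32631241: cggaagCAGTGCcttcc
Tfrc, 3′ UTR, chr16:32631604-32631620: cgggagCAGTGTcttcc
Tfrc, 3′ UTR, chr16:32631669-32631685: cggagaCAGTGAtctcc
Tfrc, 3′ UTR, chr16:32631716-32631732: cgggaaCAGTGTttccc
The search found 4 elements in Tfrc and 1 in each of the other transcripts shown, all with complete pairing on either side of the loop, G-U pairs allowed. The sequences come from GENCODE M21 transcripts.

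Tfrc, the gene of the main transferrin receptor (ENSMUSG00000022797, chromosome 16, 32608920 to 32632794, plus strand), was at 1.52, 2.58, 2.01 and 1.69 FPKM in knockouts 3, 9, 10 and 11. It was at 2.68, 3.01, 5.23 and 2.22 FPKM in wildtypes 1, 3, 10 and 12. Knockouts 3, 10 and 11 were below every wildtype library and knockout 9 was above wildtype 12. The mean was 1.95 ± 0.464 FPKM in knockout and 3.28 ± 1.34 FPKM in wildtype liver (SD, n = 4 each). The change of -0.50 (SE 0.20) did not pass (limma adjusted p = 0.125), nor did it in any of 17 alternatives (0.0835 to 0.439), and it was -0.34 without knockouts 3 and 11 (0.439). Tfrc is also high in red cell precursors. Of 10 erythroid markers measured, 5 were tested and 0 passed (2 had an unadjusted p under 0.05), with a median change of -0.47, and their summed level was 1058, 1150, 3540 and 1259 FPKM in knockouts 3, 9, 10 and 11 against 2398, 5768, 1965 and 1421 FPKM in wildtypes 1, 3, 10 and 12. Among these markers Rhag was listed at 0 in 6 libraries. Their part in the level of Tfrc was not tested.

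Slc40a1 (ENSMUSG00000025993, chromosome 1, 45908068 to 45926523, minus strand) was at 29.9, 37.6, 42.8 and 32.5 FPKM in knockouts 3, 9, 10 and 11, against 39.5, 41.3, 51.2 and 33.8 FPKM in wildtypes 1, 3, 10 and 12. Knockouts 3 and 11 were below every wildtype library, and the other knockout libraries were within the wildtype range. The change of -0.21 (SE 0.15) did not pass (limma adjusted p = 0.385), and it was -0.03 without knockouts 3 and 11 (0.923). Slc40a1 is also a macrophage gene, and of 12 tested Kupffer cell and macrophage markers limma called 0, also 0 at an unadjusted p under 0.05, with a median change of -0.03. Their summed level over 14 genes was 94.3, 122, 141 and 108 FPKM in knockouts 3, 9, 10 and 11 against 138, 133, 102 and 120 FPKM in wildtypes 1, 3, 10 and 12. Knockout 3, lowest in these markers, was also lowest in Slc40a1, and knockout 10, highest in these markers, was the highest knockout library in Slc40a1, but wildtype 10, highest of all in Slc40a1, was lowest of the wildtype libraries in the markers. The part of the macrophage markers in the level of Slc40a1 was not tested.

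By FPKM, which is a level per length, the 10 genes had the same order of group means in knockout and in wildtype liver: Hamp, Hamp2, Tfr2, Slc40a1, Hfe, Id1, Tfrc, Bmp2, Smad7 and Bmp6. In wildtype liver Id1, at 3.17 to 4.998 FPKM, and Tfrc, at 2.22 to 5.23 FPKM, were the neighbours whose libraries overlapped. In knockout liver the libraries of Hamp2 and Tfr2, of Hfe and Id1, of Id1 and Tfrc, and of Bmp2 and Smad7 overlapped.

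Genes of iron transport, storage and recycling were examined next to the members. Of 32 measured, 23 were tested, 2 rose and 2 fell, beside 2.70% and 11.7% of all tested genes. The median change was 0.25, beside -0.08 over all tested genes. At an unadjusted p under 0.05 there were 13 of the 23, beside 3126 of all 10250 tested genes. The genes that passed after adjustment were genes of heme breakdown and uptake. Hmox1, the gene of the inducible heme oxygenase that opens heme and frees its iron, was at 9.73, 8.56, 10.4 and 8.71 FPKM in knockouts 3, 9, 10 and 11, against 6.09, 6.38, 5.43 and 7.97 FPKM in wildtypes 1, 3, 10 and 12, and rose by 0.48 (SE 0.12, limma adjusted p = 0.0273). The biliverdin reductase genes Blvrb and Blvra fell by 0.51 (limma adjusted p = 0.0165) and by 0.34 (0.0237). Blvrb was at 66.9, 92.2, 85.8 and 74.4 FPKM in knockouts 3, 9, 10 and 11, all below the 118, 106, 116 and 114 FPKM of wildtypes 1, 3, 10 and 12. Lrp1, the gene of a receptor that takes up the heme-hemopexin complex among many ligands, rose by 0.50 (SE 0.14, limma adjusted p = 0.0480). The largest changes of the list did not pass: Lcn2 at 4.18, Hp at 1.56 and Hpx at 1.42 (limma adjusted p = 0.0580, 0.0975 and 0.102). Without knockouts 3 and 11 they were at 1.47, 0.36 and 0.32, and the median of the list was 0.15. The list summed to 23750, 8103, 8386 and 20150 FPKM in knockouts 3, 9, 10 and 11. Its wildtype sums were 7891 to 8726 FPKM.

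With the length trend removed, Hmox1 remained called (0.66, limma adjusted p = 0.0110), while Blvrb (-0.32, 0.0588), Blvra (-0.14, 0.184) and Lrp1 (0.47, 0.107) did not pass. On leaving out knockouts 3 and 11, limma called 0 of the 23 (11 at an unadjusted p under 0.05), and Hmox1 was at 0.49 (limma adjusted p = 0.0930). The call of Hmox1 was also lost when low genes were kept (0.0521) and on leaving out any one of wildtypes 1, 3 and 10 and knockouts 3 and 10 (0.0592 to 0.0835). That of Blvrb was lost on leaving out wildtype 1 (0.0575) and with quantile normalization (0.117). That of Blvra was lost on leaving out any one of wildtypes 1, 10 and 12 and knockouts 3 and 11 (0.0514 to 0.0700). That of Lrp1 was lost when low genes were kept (0.0922) and on leaving out any library but knockout 9 (0.0567 to 0.114).

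The ferritin genes and the transferrin gene Trf had changes that did not pass. Fth1 was at 1199, 1289, 1590 and 1508 FPKM in knockouts 3, 9, 10 and 11, all below the 1932, 1773, 1629 and 1871 FPKM of wildtypes 1, 3, 10 and 12 (-0.37, limma adjusted p = 0.0714). Ftl1 was at 1671, 2437, 2607 and 2426 FPKM in knockouts 3, 9, 10 and 11, also below the 3246, 3022, 2668 and 2818 FPKM of wildtypes 1, 3, 10 and 12 (-0.38, limma adjusted p = 0.134). Their transcripts are short, and removing the length trend gave changes of -0.25 (0.167) and -0.08 (0.713). Trf was at 12922, 7590, 11122 and 11780 FPKM in knockouts 3, 9, 10 and 11, against 7267, 7800, 7408 and 6793 FPKM in wildtypes 1, 3, 10 and 12 (0.54, limma adjusted p = 0.0655). Knockout 9 lay within the wildtype range of Trf and the other knockout libraries lay above it. The iron regulatory protein and oxygen sensing list had 0 calls among 10 tested genes in limma and 3 at an unadjusted p under 0.05, with a median of -0.04.

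**Figure D4:**
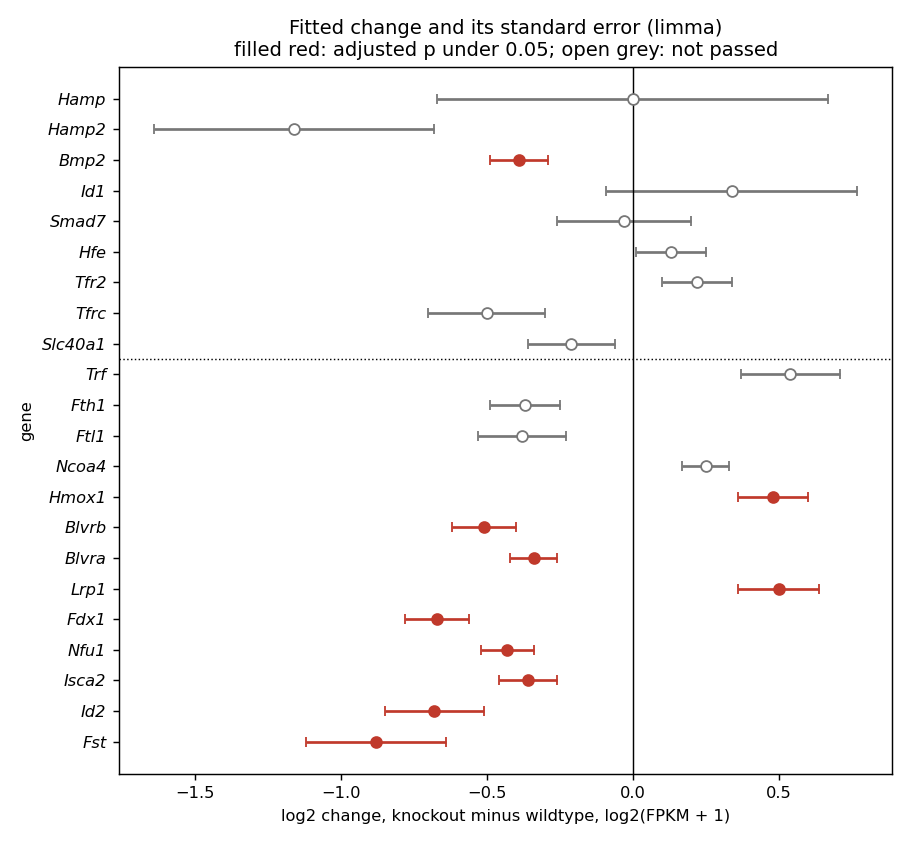
Fitted log2 changes, knockout minus wildtype, on the log2(FPKM + 1) scale with standard errors for the 9 tested members (above the dotted line) and for other iron and BMP pathway genes; filled red points passed at an adjusted p under 0.05. Bmp2 at -0.39 is the single filled point among the members, and Hamp, at 0.00, has the widest standard error, 0.67.

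Of the genes of mitochondrial iron, heme and iron-sulfur cluster assembly, all 24 in the table were tested, 4 fell and 0 rose, beside 11.7% lower and 2.70% higher among all tested genes. The median was -0.22, beside -0.08 over all tested genes. Fdx1, the gene of a mitochondrial ferredoxin, averaged 105 ± 9.85 FPKM in knockout and 168 ± 17.4 FPKM in wildtype liver (SD, n = 4 each) and fell by 0.67 (SE 0.11, limma adjusted p = 0.00581), a call kept in all 18 alternatives. The cluster carrier genes Nfu1 and Isca2 fell by 0.43 (limma adjusted p = 0.0164) and 0.36 (0.0448). With the length trend removed 2 fell, Fdx1 (-0.59, 0.0132) and Nfu1 (-0.34, 0.0276), beside 594 of all 10250 tested genes. Isca2 passed in 7 of 18 alternatives. Leaving out knockouts 3 and 11, 4 of the 24 fell and 1 rose, beside 656 and 199 of all 10250 tested genes.

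The genes that carry inflammatory and other input to Hamp showed 1 call among 10 tested, beside 14.4% of all tested genes in either direction. Their median was 0.26. Hnf4a, the gene of a hepatocyte transcription factor, was at 95.8, 92.1, 69.7 and 93.7 FPKM in knockouts 3, 9, 10 and 11, against 67.6, 55.7, 70.5 and 65.3 FPKM in wildtypes 1, 3, 10 and 12, and rose by 0.43 (limma adjusted p = 0.0494). Knockout 10, the lowest knockout library for Hamp, was within the wildtype range of Hnf4a, and the call was kept in 6 of 18 alternatives and lost without knockouts 3 and 11 (0.31, 0.227). Socs3, a STAT3 target gene, was at 15.5, 4.04, 10.2 and 4.32 FPKM in knockouts 3, 9, 10 and 11. In wildtypes 1, 3, 10 and 12 it was at 4.68, 6.99, 3.74 and 6.06 FPKM (limma adjusted p = 0.480). The part of this input in the level of Hamp was not tested. Creb3l3, the gene of a membrane-bound transcription factor that acts on Hamp, averaged 117 ± 13.1 FPKM in knockout and 106 ± 17.5 FPKM in wildtype liver (SD, n = 4 each; limma adjusted p = 0.512). Of 14 tested acute phase genes 3 rose, beside 2.70% of all tested genes. They were Lrg1 by 2.19, C3 by 0.82 and Fga by 0.97 (limma adjusted p = 0.0147, 0.0234 and 0.0492). Of the 14, 10 had an unadjusted p under 0.05, beside 3126 of all 10250 tested genes. Without knockouts 3 and 11, 4 rose, beside 199 of all 10250, and the median over the 14 was 0.24, beside 1.23 over all libraries. Of 13 hepatocyte markers 2 fell, beside 11.7% of all tested genes. They were the cytochrome P450 genes Cyp3a11 by 0.43 and Cyp2e1 by 0.60 (limma adjusted p = 0.0243 and 0.0318). The median of the 13 was -0.06, and 0 passed in limma when knockouts 3 and 11 were left out (2 at an unadjusted p under 0.05). Of 8 tested stellate cell markers limma called 0, with 2 at an unadjusted p under 0.05, and the single tested bile duct marker, Spp1, did not pass (limma adjusted p = 0.0552).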

How the data were processed

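Liver RNA of 4 knockout and 4 wildtype libraries was measured. The deposited table holds FPKM for 25690 genes, a unit inferred here, as the header names libraries only; the submitters' processing notes list TopHat2 2.1.0, HTSeq, Cufflinks 2.2.1 and build mm10. No source used here states the annotation, read length or strand setting of the authors, so reads of overlapping genes on opposite strands may not be told apart. An FPKM value of exactly 0 can be a failed estimate, as for Alb, listed at 0 in knockout 10. FPKM are not counts, and depth was estimated from the FPKM of 1 fragment in genes with 1 transcript longer than 1500 bases.

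Symbols, positions and lengths came from GENCODE M21 on the same build, with names for 24807 genes. The test covered the 10250 genes whose mean over all libraries reached 1 FPKM. Values were put on the log2(FPKM + 1) scale and genotype was tested by limma 3.58.1 (R 4.3.3, trended variances, two-sided), with Benjamini-Hochberg adjusted p under 0.05 across all these genes as the threshold. The steps were tested on simulated data. The members and the lists were chosen with earlier results of these data known. Named genes are the members, fixed companions of the pathway, and up to 4 genes with the smallest adjusted p among those called in each list, less 1 that is not reported here. Apoa1, Alb, Id4, Inhbe, Inhbc, Rhag, Spp1, Orm1, Pecam1, Gata4, Kdr and Clec4g were named after their values were seen. So were S100a8, S100a9, Cd3e, Cd8a, Cd4, Lcn2, Hp and Hpx, and Ncoa4 in the plots.

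Alternatives were another pseudocount, other filters, scalings, variance models and library weights, removal of the trend along transcript length by symmetric loess of span 0.5 (10149 tested genes have a length), the title number as a block, leaving out each library, and leaving out knockouts 3 and 11. The ratio of Hamp to Hamp2 and its alternatives were chosen after seeing the data. At most 0.17% of values were identical between any 2 libraries, so none was a copy of another.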

Additional observations from a re-analysis of the deposited data

Results flagged for a closer look

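In 5 of 82 groups of 4 libraries checked over the named genes, 1 library lay far from the others of its group. Chance flags about 1 group in 20. None was a member. Smad6 was at 1.33 FPKM in knockout 9, beside 0.646 to 0.738 FPKM in the other knockout libraries. Hnf4a was at 69.7 FPKM in knockout 10, beside 92.1 to 95.8 FPKM. Egfl7 was at 16.2 FPKM in knockout 10, beside 9.87 to 10.2 FPKM. Among wildtype libraries, Fdx1 was at 194 FPKM in wildtype 12, beside 155 to 162 FPKM, and C3 was at 1131 FPKM in wildtype 3, beside 1328 to 1357 FPKM. Knockout 9 was also the highest knockout library for Smad7, the other inhibitory SMAD gene.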

How the results depend on the processing

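Over all tested genes 277 were higher and 1195 lower. The counts were 485 and 720 with median-ratio scaling, 470 and 652 with quantile normalization, 516 and 594 with the length trend removed, and 199 and 656 without knockouts 3 and 11. Without single libraries they ranged over 102 to 360 for higher and 599 to 1294 for lower genes. Among members 1 was lower in the fit reported. With a mean of at least 5 FPKM the number was 0, since Bmp2 was then not tested, and without single libraries it was 0 to 1. Without knockouts 3 and 11 it was 1, a different gene, Hamp2. Values near 0 changed sign, none of them past the threshold. Hamp was at -0.10 with quantile normalization and with library weights, -0.03 with the replicate block, -1.25 without knockouts 3 and 11, and between -0.51 and 0.72 without single libraries. Smad7 was at 0.02 with median-ratio scaling and with the length trend removed, 0.01 with quantile normalization, 0.13 without knockouts 3 and 11, and between -0.29 and 0.13 without single libraries. Id1 was at -0.19 and Hfe at -0.03 without knockouts 3 and 11, and Id1 lay between -0.10 and 0.74 without single libraries. Tmprss6 lay between -0.03 and 0.05 without single libraries and was at 0.00 without knockouts 3 and 11. Hamp and Hamp2 summed was at 0.02 with median-ratio scaling and between -0.59 and 0.59 without single libraries. The cause of these moves was not tested. The title numbers 3 and 10 occur in both groups, but deviations of same-numbered libraries correlated at -0.008 and 0.022, and nothing in the labels pairs them. With the title number as a replicate block, Bmp2 was at -0.39 (limma adjusted p = 0.0215) and no member's call changed. Scaling by median ratio moved the median change of all genes to 0.01, beside -0.08. Depth limits the low members: Bmp6 had an estimated 30 to 48 fragments per library, Smad7 65 to 321 and Id1 66 to 584. Bmp2, the member that passed, was also low, with an estimated 117 to 234.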
